A study of Mus musculus with 12 samples.

Results

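The transcripts described here are those of 10 genes of hepatic stellate cells and of the extracellular matrix. They are the fibrillar collagen chains Col1a1, Col1a2 and Col3a1, the basement membrane chain Col4a1, the small proteoglycans Dcn (decorin) and Lum (lumican), the filament gene Des (desmin), the growth factor receptor Pdgfrb, the protease inhibitor Timp1, and Reln (reelin). The members were the non-control spots of the array whose gene name was 1 of these 10, out of 19339 genes with a usable probe. They matched 20 probes, of which 16 were kept, the rule being a signal well above background on each of the 3 arrays of 1 group or more. Of the 4 probes left out, 3 were not well above background on any array (Col1a2 A_52_P424253, Col3a1 A_52_P8643 and Reln A_52_P515857), and Col1a1 A_52_P658611 was so on 3 of 12.

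The 12 livers came from adrenalectomized C57BL/6 mice aged 11 weeks, with 3 animals in each of 4 groups: dexamethasone males, PBS males, dexamethasone females and PBS females. Dexamethasone, a synthetic glucocorticoid, was injected intraperitoneally at 1 mg/kg, the controls received phosphate buffered saline (PBS), and livers were taken 6 h later. The females were in diestrous 1, and every animal, controls included, lacked its adrenal glands, the main source of endogenous glucocorticoid. Whole-liver RNA (500 ng) was hybridized to single-colour Agilent arrays, 1 animal per array and 4 arrays on each of 3 slides. PBS males and PBS females had 1 array on each slide, dexamethasone males lay on slides 1 and 3, and dexamethasone females on slides 1 and 2.

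Hepatic stellate cells lie between the sinusoidal endothelium and the hepatocytes, where they store vitamin A. After injury they turn into myofibroblasts that secrete fibrillar collagens, divide under platelet-derived growth factor and respond to transforming growth factor beta. Portal fibroblasts, endothelium, macrophages and hepatocytes also express some of these genes, so a level in whole liver is not a level in stellate cells. Fewer cells of a type and less RNA per cell cannot be told apart in these samples.

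Levels are log2 intensities relative to the 75th percentile of the same array, so they are compared between arrays for 1 probe and not between probes. That percentile was 578 to 1251 intensity units, and 65.7 to 72.2% of spots were well above background. Dexamethasone males had 578 to 788 units and 65.7 to 69.6% of spots, against 821 to 883 units and 70.9 to 71.0% in PBS males. Dexamethasone females had 842 to 910 units and 72.0 to 72.2%, against 822 to 1251 units and 67.7 to 68.6% in PBS females. The part of these differences in the results, those of dim probes above all, was not tested. The 9 hepatocyte markers on the array were detected on all 12 arrays, as were 19 of 20 stellate cell and fibroblast markers other than the members. Differences between groups of 3 arrays are log2 fold changes ± their standard errors (SE) as fitted by limma, and p-values are adjusted over 28840 probes with a threshold of 0.05. A gene is counted by its brightest kept probe.

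In males, 3 of the 10 genes fell after dexamethasone (Col1a1, Col3a1 and Lum), 1 rose (Col4a1) and 6 did not pass the threshold. Over all probes in that comparison 11.7% fell and 10.9% rose, so the count of 4 genes stands against a background of more than 1 probe in 5. The median log2 fold change of the 10 genes was -0.45, beside 0.01 over all probes, and 8 of the 10 values were negative. In females none of the 10 passed by limma, where 13.7% of all probes passed in either direction. The median in females was -0.08, beside 0.04 over all probes. The unadjusted limma p was under the same threshold for 8 of the 10 genes in males and 2 in females. Over all 28840 probes this held for 10287 in males and 8205 in females. Averaged over both sexes, Col3a1 and Timp1 fell and Col4a1 rose, where 16.7% of all probes fell and 17.5% rose.

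**Figure D1:**
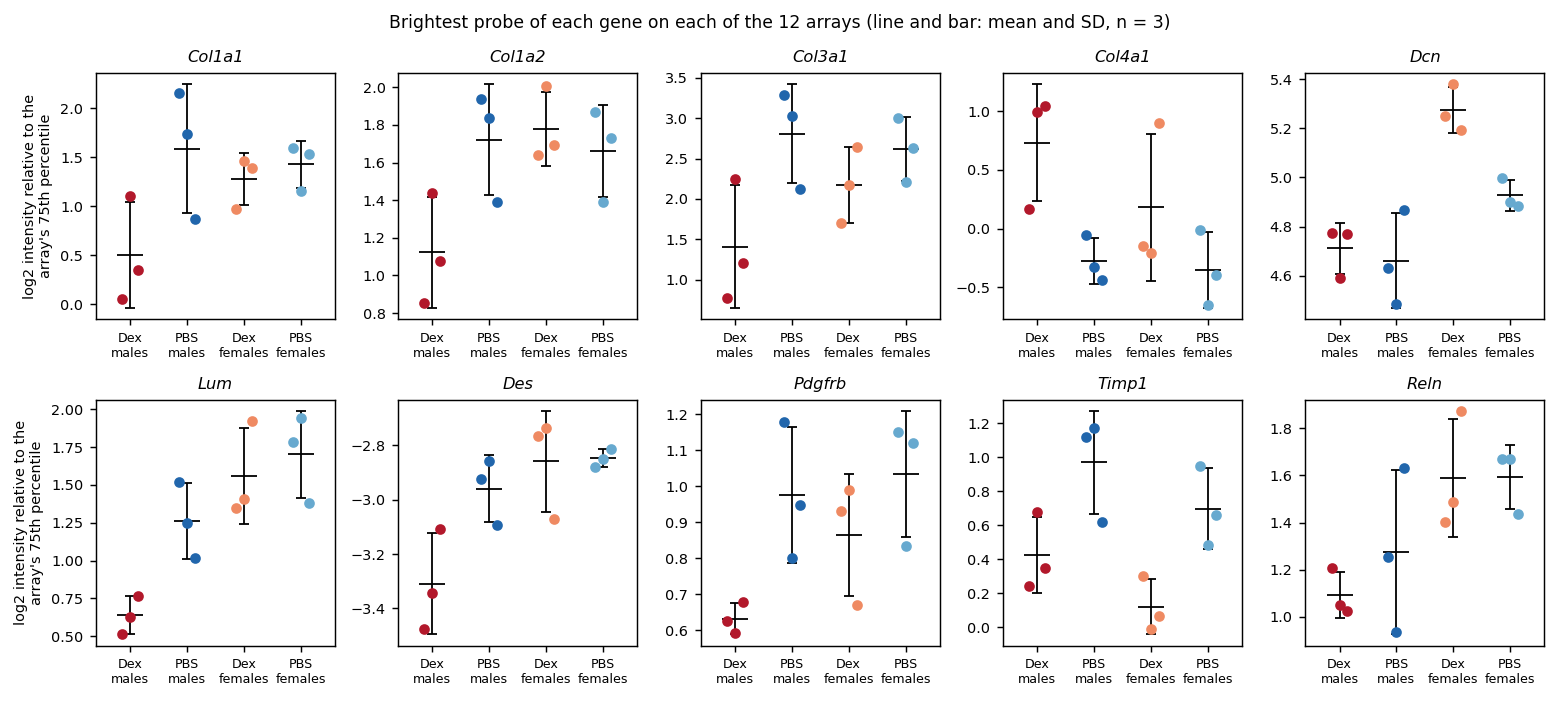
Level of the brightest probe of each of the 10 genes on each array, as log2 intensity relative to the array's 75th percentile (vertical axis), by group (horizontal axis); points are animals, and the line and bar are the mean and SD (n = 3). Dexamethasone males are the lowest group for Col1a1, Col1a2, Col3a1, Lum, Des, Pdgfrb and Reln and the highest for Col4a1, while dexamethasone females are the lowest for Timp1 and the highest for Dcn.

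The fibrillar collagens form the tensile fibres of scar and capsule. Col1a1 and Col1a2 encode the chains of type I collagen, and Col3a1 encodes type III. The brightest Col1a1 probe (A_52_P525107, mm7 chr11:95060800-95060859) read 0.05, 1.10 and 0.35 in dexamethasone males, against 2.15, 1.73 and 0.87 in PBS males. It read 0.97, 1.46 and 1.39 in dexamethasone females, against 1.59, 1.15 and 1.53 in PBS females. The male groups overlapped, because dexamethasone male 2 lay above PBS male 3, and so did the female groups. The log2 fold change in males was -1.08 ± 0.34, a 2.12-fold lower level (adjusted p = 0.0409), and in females -0.15 ± 0.34 (adjusted p = 0.816).

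Col3a1 followed a similar order of arrays. Its brightest probe (A_51_P515605, chr1:45585395-45585454) read 0.77, 2.25 and 1.20 in dexamethasone males, against 3.29, 3.02 and 2.12 in PBS males. In females the readings were 1.70, 2.17 and 2.64 after dexamethasone, against 3.00, 2.21 and 2.63 after PBS. Again dexamethasone male 2 lay above PBS male 3, and the female groups overlapped. Its log2 fold change was -1.40 ± 0.42 in males (2.65-fold lower, adjusted p = 0.0337), -0.44 ± 0.42 in females (adjusted p = 0.537) and -0.92 ± 0.29 averaged over both sexes (adjusted p = 0.0321).

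Col1a2 (A_51_P182303, chr6:4493505-4493564) read 0.85, 1.44 and 1.07 in dexamethasone males, against 1.94, 1.84 and 1.39 in PBS males. It read 1.64, 2.01 and 1.69 in dexamethasone females, against 1.87, 1.39 and 1.73 in PBS females. Only dexamethasone male 2 reached the range of the PBS males, and the female groups overlapped. Its log2 fold change did not pass the threshold in males (-0.60 ± 0.21, adjusted p = 0.0604) or in females (0.12 ± 0.21, adjusted p = 0.764).

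Across the 12 arrays, Col1a1 correlated with Col3a1 at a Pearson r of 0.96 and with Col1a2 at 0.93, as a description of arrays that share their treatment groups. The male Col1a1 and Col3a1 calls were not kept with slide as a block (adjusted p = 0.0517 and 0.0722), although both values stayed below 0 within slides 1 and 3, at -1.05 and -1.53 for Col1a1 and -1.04 and -2.04 for Col3a1. Both calls were also lost without PBS male 1, PBS male 2, dexamethasone male 1 or dexamethasone male 3 (adjusted p between 0.0933 and 0.156), and that of Col1a1 without PBS female 1, PBS female 3 or dexamethasone female 2 (adjusted p between 0.052 and 0.0535). The averaged Col3a1 call was kept with slide as a block (adjusted p = 0.0448) and lost without PBS male 1, PBS male 2, PBS female 1, PBS female 3, dexamethasone male 1, dexamethasone male 3, dexamethasone female 1 or dexamethasone female 2 (adjusted p between 0.0564 and 0.0786). The mean level of 9 Kupffer cell and macrophage markers was also lower in dexamethasone males, at 1.15 to 1.53, against 1.69 to 2.10 in PBS males, and its part in these differences was not tested.

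The other probes of these genes gave similar sizes where they were above background. Col1a1 A_51_P377094 (chr11:95059777-95059836) read -4.30, -2.99 and -3.62 in dexamethasone males, against -2.10, -1.83 and -3.36 in PBS males. It read -3.12, -2.74 and -2.89 in dexamethasone females, against -2.54, -3.19 and -2.19 in PBS females. Both pairs of groups overlapped. Its log2 fold change in males was -1.21 ± 0.43 (adjusted p = 0.065), and over the 12 arrays it correlated with the brightest Col1a1 probe at r = 0.94. A further probe of Col1a1 and of Col3a1 lies 13798 and 27228 bases upstream of the brightest ones, and both were dim. Their sequences are shown because both are rich in cysteine codons, unlike the helical part of a collagen chain. Capitals mark cysteine codons in the only reading frame without a stop, and each probe holds 4 of them.
Col1a1 A_52_P658611, mm7 chr11:95047002-95047061, plus strand: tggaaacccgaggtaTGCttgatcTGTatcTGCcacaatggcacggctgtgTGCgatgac
Col3a1 A_52_P684242, mm7 chr1:45558167-45558226, plus strand: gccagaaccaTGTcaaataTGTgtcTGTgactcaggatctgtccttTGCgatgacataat

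A cysteine-rich domain in the amino-terminal propeptide, which is removed when the collagen matures, is a known feature of both chains. The upstream Col3a1 probe was well above background on 0 of 3 arrays of dexamethasone males, 3 of 3 of PBS males, 3 of 3 of dexamethasone females and 2 of 3 of PBS females. In males it read -8.00, -7.91 and -6.68 after dexamethasone, against -5.56, -6.33 and -6.61 after PBS. In females it read -6.38, -6.92 and -6.19 after dexamethasone, against -5.61, -6.67 and -6.15 after PBS. The male groups did not overlap and the female groups did. In males the measured means were -7.53 after dexamethasone and -6.17 after PBS, a log2 fold change of -1.36 ± 0.41 (adjusted p = 0.035). Since no dexamethasone male was above background, the difference is given as at least 1.08-fold lower, from the lowest signal well above background on each of those arrays. The upstream Col1a1 probe was well above background on dexamethasone male 3, PBS male 1 and PBS male 2, where it read -5.98, -5.88 and -6.17, and was not tested. The male call of the upstream Col3a1 probe was lost with slide as a block (adjusted p = 0.0794) and without PBS male 1, PBS male 2, dexamethasone male 1 or dexamethasone male 2 (adjusted p between 0.0659 and 0.135).

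Col4a1 encodes a chain of type IV collagen, the network collagen of basement membranes, made in liver by endothelium and stellate cells. Its brightest probe (A_51_P124254, chr8:11167020-11167079, minus strand) read 0.16, 0.99 and 1.05 in dexamethasone males, against -0.06, -0.33 and -0.44 in PBS males. It read -0.15, -0.21 and 0.90 in dexamethasone females, against -0.01, -0.65 and -0.40 in PBS females. All 3 dexamethasone males lay above all PBS males, while in females dexamethasone female 3 alone lay above the PBS range. Its log2 fold change was 1.01 ± 0.32 in males (2.01-fold higher, adjusted p = 0.046), 0.53 ± 0.32 in females (adjusted p = 0.314) and 0.77 ± 0.23 averaged over both sexes (adjusted p = 0.0237).

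The second Col4a1 probe (A_52_P518827, whose 60 bases span 1835 bases at chr8:11167857-11169691) read -0.01, 0.80 and 1.20 in dexamethasone males, against -0.07, -0.10 and -0.44 in PBS males. It gave 0.87 ± 0.27 in males (adjusted p = 0.0397) and 0.67 ± 0.19 averaged over both sexes (adjusted p = 0.0184). In females it read 0.01, -0.31 and 0.08 after dexamethasone, against -0.33, -0.61 and -0.72 after PBS. These female groups did not overlap, and their log2 fold change of 0.48 ± 0.27 did not pass (adjusted p = 0.271). Col4a2, the partner chain in type IV collagen, had values of 0.06 ± 0.25 in males and 0.28 ± 0.25 in females (adjusted p = 0.898 and 0.503) and was named after its values were seen. The highest member correlation of Col4a1 was with Dcn, at r = -0.10 over the 12 arrays.

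With slide as a block the male Col4a1 calls were lost (adjusted p = 0.0625 and 0.0733), and the averaged ones were kept (0.0359 and 0.034). The brightest probe's averaged call was lost without PBS male 3, PBS female 2, dexamethasone male 2 or dexamethasone male 3 (adjusted p between 0.0522 and 0.0547), and both male calls without any of the 3 PBS males, dexamethasone male 2, dexamethasone male 3 or dexamethasone female 1 (adjusted p between 0.0532 and 0.138), that of the brightest probe also without PBS female 1 or PBS female 3 (0.051 and 0.0604).

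**Figure D2:**
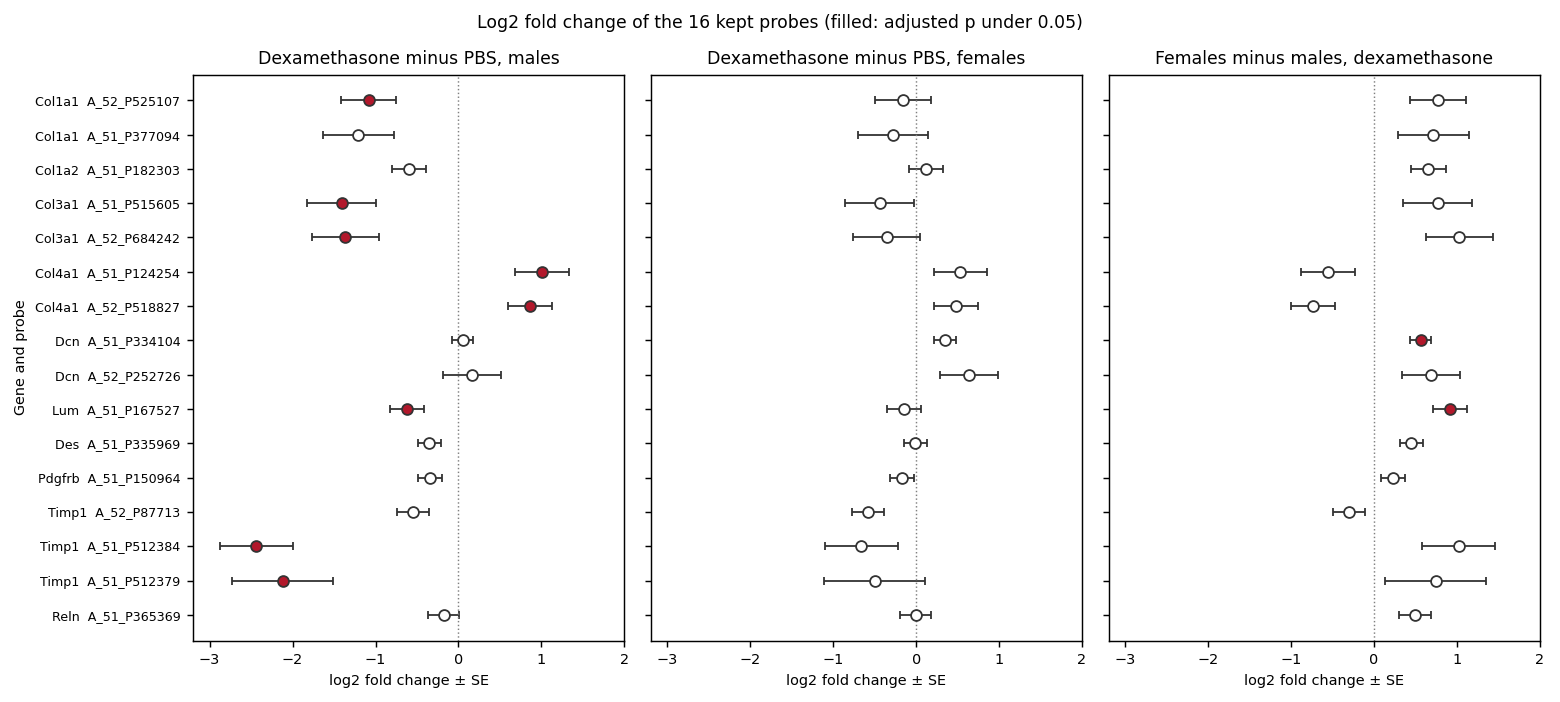
Log2 fold change with its standard error (horizontal axis) of the 16 kept probes (vertical axis, grouped by gene) for dexamethasone minus PBS in males, dexamethasone minus PBS in females, and females minus males under dexamethasone; filled points passed an adjusted p of 0.05. In males 6 probes fell and 2 rose, in females none of the 16 passed, and 2 probes were higher in dexamethasone females than in dexamethasone males.

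Dcn and Lum encode small leucine-rich proteoglycans that bind collagen fibrils and limit their width. The brightest Dcn probe (A_51_P334104, chr10:97080086-97080145) read 4.77, 4.59 and 4.77 in dexamethasone males, against 4.63, 4.48 and 4.87 in PBS males. In females it read 5.25, 5.38 and 5.19 after dexamethasone, against 5.0, 4.90 and 4.88 after PBS. The male groups overlapped and the female groups did not. Neither change of 0.05 ± 0.13 in males (adjusted p = 0.83) nor that of 0.35 ± 0.13 in females (adjusted p = 0.103), on the log2 scale, passed the threshold.

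Lum (A_51_P167527, chr10:97135063-97135122) read 0.51, 0.63 and 0.77 in dexamethasone males, against 1.52, 1.25 and 1.02 in PBS males, with no overlap. In females it read 1.35, 1.40 and 1.92 after dexamethasone, against 1.79, 1.94 and 1.38 after PBS, with overlap. Its log2 fold change was -0.62 ± 0.20 in males (1.54-fold lower, adjusted p = 0.0492) and -0.14 ± 0.20 in females (adjusted p = 0.699). The male call was lost with slide as a block (adjusted p = 0.115) and without any of PBS male 1, PBS male 2, PBS female 1, the 3 dexamethasone males, dexamethasone female 1 or dexamethasone female 2 (adjusted p between 0.0566 and 0.179). Within slides 1 and 3 the male difference was -0.89 and -0.61.

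Dexamethasone females had more of both proteoglycan transcripts than dexamethasone males. The difference was 0.92 ± 0.20 for Lum (1.89-fold, adjusted p = 0.0295) and 0.56 ± 0.13 for Dcn (1.48-fold, adjusted p = 0.0336), and for neither gene did the 3 females overlap the 3 males. These 2 were the only members called in that comparison, both higher in females, where 2.87% of all probes were higher and 2.21% lower. The median log2 fold change of the 10 genes was 0.53, beside -0.04 over all probes. Under PBS the same differences were 0.44 ± 0.20 for Lum and 0.27 ± 0.13 for Dcn (adjusted p = 0.396 and 0.425). None of the 10 genes passed by limma under PBS, where 1.72% of all probes passed. The unadjusted limma p was under the threshold for 6 of the 10 genes under dexamethasone and 0 under PBS. Over all 28840 probes this held for 6032 under dexamethasone and 3765 under PBS.

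The second Dcn probe (A_52_P252726, chr10:97043200-97043259) was well above background on 7 of 12 arrays, 3 of them of dexamethasone females. It averaged -5.63 ± 0.28 in dexamethasone females and -6.32 ± 0.66 in dexamethasone males (SD, n = 3 each). Because it was kept only through dexamethasone females, no test of it is given. With slide as a block the sex differences were 0.84 for Lum and 0.50 for Dcn (adjusted p = 0.207 and 0.251), and within slide 1, the 1 slide with both dexamethasone groups, 0.78 and 0.79 between 1 array of each. Both calls were lost without any 1 of the 3 dexamethasone males, dexamethasone female 1 or dexamethasone female 2, that of Lum also without dexamethasone female 3 and that of Dcn without PBS male 1 (adjusted p between 0.0511 and 0.107). In the same comparison the mean level of the 9 Kupffer cell and macrophage markers was 1.83 to 2.81 in dexamethasone females, against 1.15 to 1.53 in dexamethasone males, and that of 13 endothelial markers 0.93 to 1.45, against 0.70 to 0.87. Their part in the difference was not tested. The sex comparison under dexamethasone shares its arrays with the dexamethasone effect of each sex.

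Des, Pdgfrb and Reln are used as markers of stellate cells, and none of the 3 is read here as specific to them. Desmin is an intermediate filament of stellate cells and muscle, Pdgfrb is the receptor through which platelet-derived growth factor drives stellate cell division, and reelin is a secreted glycoprotein best known from the migration of neurons. Des (A_51_P335969, chr1:75593023-75593248) read -3.48, -3.34 and -3.11 in dexamethasone males, against -2.93, -2.86 and -3.09 in PBS males. It read -2.77, -2.74 and -3.07 in dexamethasone females, against -2.88, -2.85 and -2.81 in PBS females. The male groups did not overlap, but dexamethasone male 3 (-3.107) and PBS male 3 (-3.095) lay close together. Their gap was smaller than the median SD between repeat spots of this probe on 1 array, 0.08. The female groups overlapped. Its log2 fold change was -0.35 ± 0.14 in males (adjusted p = 0.0991) and -0.01 ± 0.14 in females (adjusted p = 0.973).

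Pdgfrb (A_51_P150964) read 0.62, 0.59 and 0.68 in dexamethasone males, against 1.18, 0.80 and 0.95 in PBS males. It read 0.93, 0.99 and 0.67 in dexamethasone females, against 1.15, 0.83 and 1.12 in PBS females. Every dexamethasone male lay below every PBS male, and the female groups overlapped. The difference was -0.34 ± 0.15 on the log2 scale in males (adjusted p = 0.117), -0.17 ± 0.15 in females (adjusted p = 0.49) and -0.26 ± 0.10 averaged over both sexes (adjusted p = 0.0768), and none of the 3 passed.

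Reln (A_51_P365369, chr5:20922621-20922680, minus strand) read 1.21, 1.05 and 1.02 in dexamethasone males, against 1.25, 0.94 and 1.63 in PBS males. It read 1.40, 1.49 and 1.87 in dexamethasone females, against 1.67, 1.67 and 1.43 in PBS females. Both pairs of groups overlapped, and the log2 fold changes were -0.18 ± 0.19 in males and 0.00 ± 0.19 in females (adjusted p = 0.546 and 0.994). Under dexamethasone all 3 females lay above all 3 males, by 0.49 ± 0.19, which did not pass (adjusted p = 0.164). Of the 3 genes listed for reelin receptors and adaptor, only Vldlr, a lipoprotein receptor that binds reelin, was kept. It did not pass in either sex after dexamethasone, and it was higher in dexamethasone females than in dexamethasone males by 2.46 ± 0.54 (adjusted p = 0.0279). Under PBS the same difference was 1.93 and did not pass, and the dexamethasone effect was not shown to differ between the sexes.

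The probes of Col1a1, Des and Reln were printed 10 times on each array, which measures the noise between spots. Labelling, hybridization and scaling differ between arrays, so the spread between animals, with 1 array each, still holds that error. The SD between spots of 1 array had a median of 0.05 for Col1a1, 0.08 for Des and 0.04 for Reln on the log2 scale. The SD between the 3 animals of a group was 0.24 to 0.65 for Col1a1, 0.03 to 0.19 for Des and 0.10 to 0.35 for Reln. For Col1a1 and Reln, the spread between animals was larger in every group than the highest SD between spots, which was 0.07 and 0.06. For Des the highest SD between spots was 0.12, inside the range between animals.

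**Figure D3:**
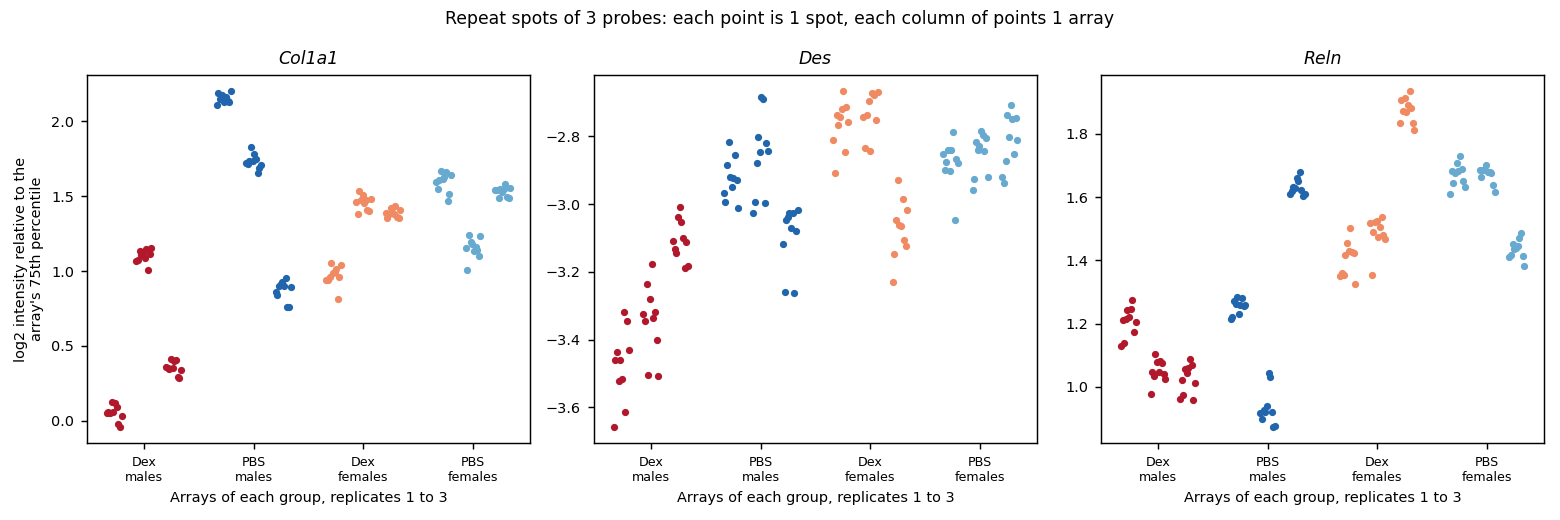
Repeat spots of the Col1a1, Des and Reln probes, as log2 intensity relative to the array's 75th percentile (vertical axis); each point is 1 spot, each column of points 1 array, and columns are grouped by treatment and sex (horizontal axis). The spots of an array lie close together for Col1a1 and Reln and scatter more for Des. For Col1a1 and Reln some columns of a group stand apart and others overlap, such as Reln in PBS females 1 and 2.

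Timp1 encodes a secreted inhibitor of matrix metalloproteases that rises in fibrosis. It was represented by 3 kept probes, printed here because the size of the difference varied between them. The first pair adjoin on mm7, the second of them covering 60 bases over 250 bases of the genome, and the third lies 1460 bases further downstream. Capitals mark cysteine codons in the only reading frame without a stop.
Timp1 A_51_P512384, mm7 chrX:19305929-19305988, plus strand: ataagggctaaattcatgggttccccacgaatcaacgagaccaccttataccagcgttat
Timp1 A_51_P512379, mm7 chrX:19305989-19306238, plus strand: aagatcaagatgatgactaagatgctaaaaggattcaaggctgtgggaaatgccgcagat
Timp1 A_52_P87713, mm7 chrX:19307699-19307758, plus strand: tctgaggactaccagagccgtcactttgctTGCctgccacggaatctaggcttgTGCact

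The downstream probe, A_52_P87713, was the brightest and read 0.24, 0.68 and 0.35 in dexamethasone males, against 1.12, 1.17 and 0.62 in PBS males. It read 0.30, -0.01 and 0.06 in dexamethasone females, against 0.95, 0.48 and 0.66 in PBS females. The female groups did not overlap, and among males dexamethasone male 2 lay above PBS male 3. The log2 fold change was -0.55 ± 0.19 in males and -0.58 ± 0.19 in females (adjusted p = 0.0642 and 0.0714), and averaged over both sexes it fell by 0.56 ± 0.14 (1.48-fold, adjusted p = 0.00884). That averaged call was kept in each of the 21 alternative fits run, with adjusted p between 0.0044 and 0.0257 when single arrays were left out.

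The probe A_51_P512384 read -6.39, -6.97 and -5.78 in dexamethasone males, against -3.30, -3.65 and -4.87 in PBS males. It read -5.34, -5.43 and -5.28 in dexamethasone females, against -5.14, -5.01 and -3.91 in PBS females. Neither pair of groups overlapped, and only dexamethasone male 3 of the dexamethasone males was well above background, so the size of the male difference rests on signals at background and is given as fitted. For this probe the log2 fold change was -2.44 ± 0.44 in males (adjusted p = 0.00339), -0.66 ± 0.44 in females (adjusted p = 0.361) and -1.55 ± 0.31 averaged over both sexes (adjusted p = 0.00327). The male value was -2.80 with slide as a block (adjusted p = 0.00214) and -3.67 and -2.43 within slides 1 and 3.

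The adjoining probe, A_51_P512379, read -8.35, -7.16 and -6.75 in dexamethasone males, none of them well above background, against -4.68, -4.95 and -6.26 in PBS males. In females it read -6.41, -6.78 and -6.83 after dexamethasone, against -7.47, -5.96 and -5.08 after PBS. In males the measured means of -7.42 after dexamethasone and -5.30 after PBS gave -2.12 ± 0.61 (adjusted p = 0.0296), reported as at least 1.97-fold lower because of the background. The male call was lost without PBS male 1, PBS male 2, dexamethasone male 1 or dexamethasone male 2 (adjusted p between 0.0574 and 0.112). In females the difference was -0.50 ± 0.61 (adjusted p = 0.646). The average over both sexes was -1.31 ± 0.43 (adjusted p = 0.0361), a call lost without any 1 of 9 arrays, namely PBS male 1 or 2, PBS female 2 or 3, dexamethasone male 1 or 2 and each dexamethasone female (adjusted p between 0.0519 and 0.0861).

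The direction of the dim probes changed with the background correction. With the normexp method in place of the processed signal, the male log2 fold change was 0.21 for A_51_P512384 and 0.68 for A_51_P512379, while the median of all probes moved to 0.35. The first of these lay below that median and the second above it. The upstream Col3a1 probe turned likewise, to 0.89 in males. The bright Timp1 probe correlated over the 12 arrays with the dim ones at r = 0.59 and 0.55, and the dim ones with each other at 0.88.

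**Figure D4:**
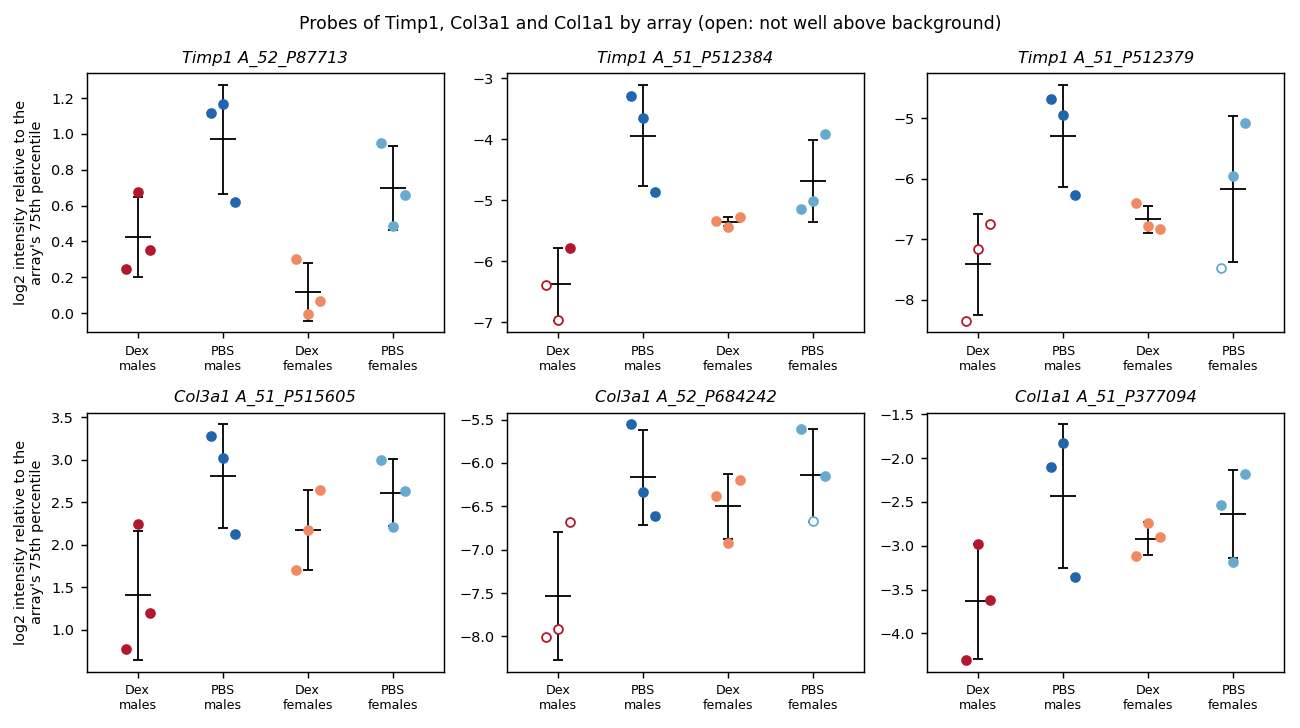
Levels of 3 Timp1 probes, 2 Col3a1 probes and 1 Col1a1 probe on each array, as log2 intensity relative to the array's 75th percentile (vertical axis), by group (horizontal axis); open points are arrays on which the probe was not well above background, and the line and bar are the mean and SD (n = 3). Dexamethasone males hold most open points, and all 3 Timp1 probes have lower means in the dexamethasone group of each sex.

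The dexamethasone effect was not shown to differ between the sexes for any member. Only 0.00347% of all probes, 1 probe, passed in the test of the female effect minus the male effect. None of the 10 genes passed by limma, and 1 had an unadjusted p under the threshold, as did 1629 of 28840 probes. The 1 gene was Col1a2, at 0.72 ± 0.29 (unadjusted p = 0.0327, adjusted p = 0.869). Among the 16 probes the lowest p was that of Timp1 A_51_P512384, at 1.77 ± 0.62 (unadjusted p = 0.016, adjusted p = 0.763). The bright Timp1 probe gave -0.03 ± 0.27. For 8 of the 10 genes the difference was positive, the female value being the higher, and the median was 0.32, beside 0.03 over all probes.

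Beyond the members, 5 of 13 other collagens fell in males after dexamethasone and none rose. Over all 19339 genes, each by its brightest probe, 12.1% fell and 10.4% rose in males, and 6.88% fell and 6.78% rose in females. Col15a1, a collagen of the basement membrane zone, read -3.76, -3.48 and -3.74 in dexamethasone males, against -1.50, -1.93 and -2.35 in PBS males, a log2 fold change of -1.73 ± 0.36 (adjusted p = 0.00642). It fell in females too, by 1.55 ± 0.36 (adjusted p = 0.0169). Col8a1, a short-chain network collagen, fell by 1.31 ± 0.27 in males and by 0.94 ± 0.27 in females (adjusted p = 0.00692 and 0.0438). The type V chains Col5a2 and Col5a1, which set the width of type I fibrils, fell in males by 1.15 ± 0.23 and 0.82 ± 0.21 (adjusted p = 0.00581 and 0.0163). The list's median log2 fold change was -0.43 in males and -0.18 in females, beside 0.01 and 0.02 over all genes. Col5a3 was lower in females than in males under dexamethasone, by 2.16 ± 0.20 (adjusted p = 0.000259), and under PBS, by 2.57 ± 0.20 (adjusted p = 8.51e-05).

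Of 29 other matrix glycoproteins and proteoglycans, 3 fell in males and 26 did not pass, a share near the 12.1% of all genes, with a median of -0.10. Lama4, a laminin chain of vessel walls, fell by 1.48 ± 0.19 in males and by 1.19 ± 0.19 in females (adjusted p = 0.000597 and 0.00302). Fbn1, the microfibril protein fibrillin, fell by 0.74 ± 0.23 in males (adjusted p = 0.0398). In females Fbln5, an elastic fibre protein, rose by 0.65 ± 0.19 (adjusted p = 0.042), and the list's median was 0.18. Of 15 genes of collagen modification and crosslinking, 2 fell in males and 13 did not pass, a share near the 12.1% of all genes. Loxl1, a lysyl oxidase that crosslinks fibres, and Serpinh1, a collagen chaperone, fell by 0.63 ± 0.16 and 0.60 ± 0.19 (adjusted p = 0.0203 and 0.0409). In females 2 of the 15 rose and 0 fell, where 6.78% of all genes rose. Bmp1, which cleaves procollagen, rose there by 0.49 ± 0.14 (adjusted p = 0.0358). Lox, another lysyl oxidase, was the other of the 2 counted as rising. It was kept only through dexamethasone females, where it averaged -5.76 ± 0.08, against -7.34 ± 0.46 in PBS females (SD, n = 3 each). No PBS female was well above background, so the direction of Lox was set by the filter and its place in that count is not read as a result.

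Of 20 proteases and inhibitors, 3 rose and 3 fell in males, where 10.4% of all genes rose and 12.1% fell. In females 2 rose and 3 fell, where 6.78% of all genes rose and 6.88% fell. Serpine2, an inhibitor of serine proteases, read -0.39, -1.24 and -0.34 in dexamethasone males, against -5.06, -3.89 and -3.68 in PBS males, and rose 11.7-fold (3.55 ± 0.39, adjusted p = 0.000316). It rose by 2.06 ± 0.39 in females (adjusted p = 0.00757). The collagenase Mmp13, counted among those that fell, was well above background in all PBS animals and in no dexamethasone animal. It was kept through the PBS groups alone, so its direction was set by the filter, and it was at least 1.76-fold lower in males and at least 2.75-fold lower in females. Mmp15, a membrane-bound metalloprotease, fell by 1.73 ± 0.26 and 1.41 ± 0.26 (adjusted p = 0.00148 and 0.00687). Among the paralogs of Timp1, Timp3 and Timp2 were named after their values were seen. Timp3 rose in males and in females (0.69 ± 0.17 and 0.74 ± 0.17, adjusted p = 0.0164 and 0.0179), and Timp2 had -0.03 ± 0.23 and 0.40 ± 0.23 (adjusted p = 0.951 and 0.28). The remaining paralog, Timp4, averaged -3.85 ± 0.58 in dexamethasone males, against -5.15 ± 0.47 in PBS males (SD, n = 3 each). In females it averaged -4.83 ± 0.39 after dexamethasone, against -5.80 ± 0.72 after PBS.

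Of 21 genes of transforming growth factor beta and platelet-derived growth factor signalling, 4 rose and 7 fell in males, where 10.4% of all genes rose and 12.1% fell. In females 4 rose and 1 fell, where 6.78% of all genes rose and 6.88% fell. Tgfb1, a main inducer of collagen genes in stellate cells, read -3.51, -3.50 and -3.33 in dexamethasone males, against -1.85, -1.96 and -2.46 in PBS males, a log2 fold change of -1.36 ± 0.19 (adjusted p = 0.00112). It fell by 0.96 ± 0.19 in females (adjusted p = 0.00993). Ccn2, connective tissue growth factor, moved the other way, at 4.30, 3.58 and 3.69 in dexamethasone males, against -1.11, -0.59 and 0.67 in PBS males (18.4-fold higher, 4.20 ± 0.41, adjusted p = 0.000163). In females Ccn2 rose by 2.81 ± 0.41 (adjusted p = 0.002). Skil, a repressor of the same pathway, rose by 1.51 ± 0.26 in males and 1.39 ± 0.26 in females (adjusted p = 0.00243 and 0.00639).

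**Figure D5:**
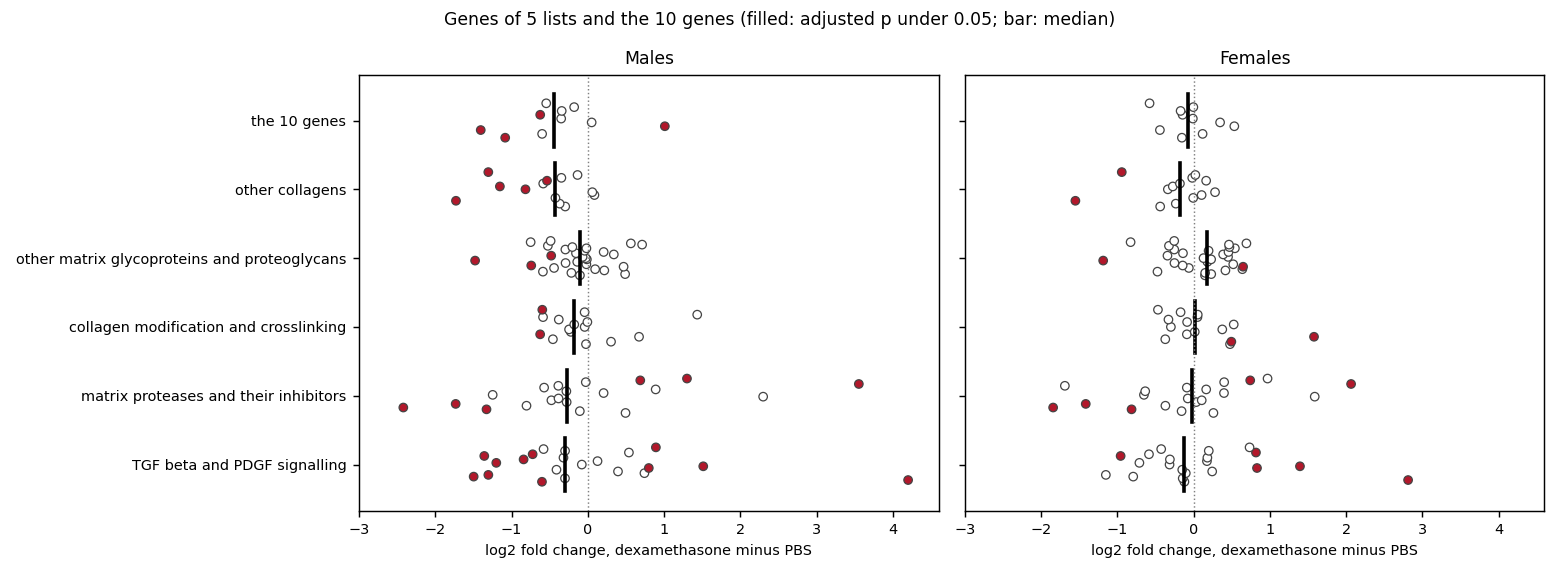
Log2 fold change, dexamethasone minus PBS (horizontal axis), of the 10 genes and of 5 lists of matrix genes (vertical axis) in males and females; each point is a gene, filled where its adjusted p was under 0.05, and the bar is the median. The other collagens have their median at -0.43 in males and hold no gene that rose, whereas proteases and growth factor signalling genes spread to both sides.

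Marker lists of cell types moved unevenly beside these genes, and their part in the results was not tested. Of the 20 other stellate cell and fibroblast markers, 3 rose and 3 fell in males, near the 10.4% and 12.1% of all genes, with a median of -0.00. The neurotrophin receptor Ngfr fell by 2.39 ± 0.23 and Lrat, the enzyme that stores vitamin A as ester, by 1.25 ± 0.34 (adjusted p = 0.000149 and 0.0228), while the transcription factor Hand2 rose by 0.90 ± 0.24 (adjusted p = 0.02). Their mean level was 0.22 to 0.52 in dexamethasone males, against 0.44 to 0.62 in PBS males. It was 0.50 to 0.82 in dexamethasone females, against 0.65 to 0.87 in PBS females.

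Of the 9 hepatocyte markers, 7 rose in males and 5 in females, where 10.4% and 6.78% of all genes rose. Tat, a liver enzyme of tyrosine breakdown that glucocorticoids are known to induce, rose by 1.91 ± 0.26 in males (adjusted p = 0.000799). Their mean level was 7.51 to 7.74 in dexamethasone males, against 6.84 to 7.01 in PBS males. In females that level was 7.36 to 7.60 after dexamethasone, against 6.82 to 6.94 after PBS. The Kupffer cell and macrophage markers lay at 1.83 to 2.81 in dexamethasone females, against 2.09 to 2.71 in PBS females, beside the male levels given above. In males Cd163 rose and Adgre1 fell among them (1.51 ± 0.33 and -1.18 ± 0.37, adjusted p = 0.00899 and 0.0433). Of 13 endothelial markers 2 rose and 3 fell in males, beside 10.4% and 12.1% of all genes, with mean levels of 0.70 to 0.87 in dexamethasone males, against 0.59 to 0.99 in PBS males. Smooth muscle, mesothelial and cholangiocyte markers had 1 of 5, 0 of 5 and 1 of 5 genes past the threshold in males. Their mean levels lay between -2.13 and -0.58, -3.49 and -2.81, and -1.25 and -0.65 over the 4 groups, and no group stood clear of its control in smooth muscle or cholangiocyte markers. The mesothelial level was -3.49 to -3.22 in dexamethasone males, against -3.17 to -2.96 in PBS males. Every marker of hepatocytes, endothelium, Kupffer cells, smooth muscle and mesothelium was detected on all 12 arrays, and among those of stellate cells and fibroblasts Gfap was detected on 11.

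Each member's nearest genes over the 12 arrays are given as a description, since arrays of 1 group share their treatment and sex. Outside the members, Col1a1 was most like the integrin chain Itga4 (r = 0.93) and Col5a2 (r = 0.90). Col3a1 was most like Col5a1 (r = 0.94), Arhgap11a (r = 0.93) and the collagen chaperone Fkbp10 (r = 0.93). Lum was nearest to the leukocyte integrin chain Itgb2 (r = 0.96). Reln was nearest to the endothelial adhesion molecule Pecam1 (r = 0.97), Dcn to Smim5 and to the endothelin receptor Ednra (r = 0.95 for both), and Pdgfrb to Lbh (r = 0.95). Des was nearest to Gpm6b (r = 0.94), Timp1 to Zfp688 (r = 0.96), Col4a1 to Asxl1 (r = 0.96) and Col1a2 to Fmnl1 (r = 0.92).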

How the data were processed

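The deposited scanner files hold 1 array each. Their values are intensities that the authors obtained with Agilent Feature Extraction 9.5, per the submitters' processing notes. The processed signal, an intensity already background-subtracted by the authors' software per the file headers, was taken to log2, and the 75th percentile of these log2 values on the array, control spots aside, was taken off. The deposited series table held the same intensity for every spot. Outlier spots were dropped and the spots of a probe averaged on the log2 scale, and the filter on dim probes left 28840 of them. Gene names came from the files and were updated with a RefSeq table of GRCm38.p6. Probe coordinates are those of the array design on mm7, and no mm7 gene model was used here.

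limma 3.58.1 in R 4.3.3 fitted 4 group means to all 12 arrays with empirical Bayes moderation (8 residual degrees of freedom), for 6 comparisons, each adjusted by Benjamini and Hochberg. The fit was checked on simulated data. P-values measure the spread between animals, and the number of arrays limits the precision. Genes outside the members were named as the up to 4 largest changes per list past the threshold, or the nearest by correlation. Exceptions were Col4a2, Timp2 and Timp3, named after their values were seen, and Gfap, named for its detection. The members and lists were chosen with earlier results of these data known. Alternatives were normexp, quantile scaling, other probe filters and summaries, slide and replicate blocks, array weights, fits of the compared groups and leaving out each array.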

Additional observations from a re-analysis of the deposited data

How the results depend on the processing

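With 3 animals per group, several male calls lie close to the threshold. Against 4 members called in males, 0 were called with normexp, without the filter on dim probes and with slide as a block, 2 in a fit of the compared groups, and 0 to 5 when single arrays were left out. The count fell to 0 without PBS male 1, PBS male 2 or dexamethasone male 3, and to 1 without dexamethasone male 1 or PBS female 1. For both sexes averaged, 3 members were called, 5 with array weights and 1 to 4 with single arrays left out, the 1 without dexamethasone male 3. Normexp called 3 there too, 0 higher and 3 lower, against 1 higher and 2 lower. Between the sexes under dexamethasone 2 were called, 0 with normexp, slide as a block or the compared groups, 1 when the probes of a gene were averaged, and 0 to 2 with single arrays left out. The counts of 0 in females, for the difference of effects and between the sexes under PBS were 0 in each fit run as well.

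Normexp raised the median of all probes to 0.35 in males and 0.34 in the average of both sexes, and turned 6 called values. For Timp1 these were 0.21 and 0.40 (A_51_P512384) and 0.68 and 0.73 (A_51_P512379), and for Col3a1 A_52_P684242 0.89 and 0.87, in males and in the average. The cause was not tested.

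Between groups, deviations of arrays with the same replicate number correlated at -0.20 to 0.28, and those with different numbers at -0.38 to 0.35. With such overlap the check cannot show whether equal numbers stand for shared handling. A replicate block gave 0 members called in males, 0 in females, 2 in the average, 0 for the difference of effects, 0 between the sexes under dexamethasone and 0 under PBS. Of 363 recomputed values of called probes, 226 kept their call or size, 127 lost the call, 6 turned sign and 4 values within a slide moved by over 1 SD. The other values among the 2112 recomputed were of probes not called. Of these, 80 had the other sign, 23 became calls and 46 within a slide moved by over 1 SD. Within a sex and slide, PBS arrays held lower positions than dexamethasone arrays, so position and treatment cannot be told apart. Males likewise held lower positions than females of the same treatment and slide, so position and sex cannot be told apart either.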
